A study of Mus musculus with 2 samples.

Results

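The genes described here are those of mitochondrial fatty acid oxidation and ketone body metabolism in mouse liver. A list of 34 genes named the members, and a member was taken from every probe set whose annotation gave its symbol alone. Of these, 33 had such a probe set and all 33 lay in the measured range, out of 12644 measured genes in all. Acsl1, the remaining listed gene, is not analysed here. The list was set by function and its rule has no threshold on measured values, although it was drawn up with earlier results of these data known.

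The livers came from male C57BL/6J mice, an inbred wild-type strain, housed singly from 8 weeks of age and labelled as 5 months old. The AL group had free access to food for 12 weeks. The CR group received 20% less food in week 1 and 40% less in the following 11 weeks. Equal amounts of RNA from 3 mice were combined into 1 pool per diet, and each pool was hybridised to 1 Affymetrix array, so the spread between mice cannot be measured and no test or p-value was possible. Each difference below is on the log2 scale, CR minus AL, so that a value above 0 means a brighter signal in CR, and it compares these pools only. A gene was measured if its brighter pool reached an intensity of 7.38, the median of all values, and it was represented by its brightest probe set.

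Fatty acids that enter a hepatocyte are bound by carrier proteins and activated to acyl-CoA, and carnitine then ferries long-chain acyl groups across the inner mitochondrial membrane. In the matrix, the repeated steps of the oxidation spiral shorten the chain, pass electrons to the respiratory chain and release acetyl-CoA. In fasted liver much of that acetyl-CoA becomes ketone bodies, which the liver exports and does not burn itself. The nuclear receptor PPAR alpha is the textbook activator of many of these genes in fasting.

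Both pools carried the signature of hepatocytes, with albumin (Alb) at 12765 in AL and 11794 in CR. The 8 hepatocyte markers with a probe set summed to 48744 in AL and 46625 in CR, 2 of them above 0 and 6 below. Apob was at -0.94 on its brightest probe set and at 0.20 on its other one. Ass1 was dim, at 13.0 in AL and 11.0 in CR. Defining markers of the other tissues that also oxidise fatty acids were dim: the muscle, heart and enterocyte markers did not exceed 14.4, and the kidney markers did not exceed 27.6. Among resident cells, all 7 Kupffer cell markers were lower in CR, with a median difference of -0.57 and summed intensities of 1966 in AL and 1741 in CR. The 4 neutrophil markers with a probe set summed to 104 in AL and 34.7 in CR. That fall came mostly from S100a8, at 53.4 and 10.9, and S100a9, at 34.1 and 10.2. Ngp was dim and at -0.23, and Camp was below the measured range. The 3 measured markers of periportal hepatocytes summed to 2955 in AL and 1567 in CR, mostly through Cyp2f2, at 1837 and 539.6. Pck1 was at -0.01 on its brightest probe set but at 1.36 on its other one. The 5 pericentral markers summed to 13173 and 12488, mostly through Cyp2e1. Of them 1 was above 0, Glul at 0.48, and 4 were below, Cyp1a2 lowest at -0.50. The part of these cell types in the results was not tested. In whole liver, fewer cells of a type and less RNA per cell cannot be told apart. All 18 hybridisation control probe sets, RNA added to each sample before hybridisation, were higher in CR, by 0.33 to 1.32. For Gapdh the signal of the 3' end exceeded that of the 5' end 46.9-fold in AL and 53.2-fold in CR. The same ratio for beta-actin was wider, 83.5-fold in AL and 89.7-fold in CR. Every direction given here is relative to the typical gene of the normalized arrays, whose median difference was -0.02. Scaling on all hybridisation controls would lower each difference by 1.02, and scaling on the cre controls alone by 0.37. The 24 probe sets of poly-A spikes had a median difference of 1.41, and those of beta-actin and Gapdh had medians of -0.83 and -0.85.

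Among the members the widest difference was that of Slc22a5, and on the lower side that of Etfdh. Of the 33 members, 20 were above 0 and 13 below, and 60.6% above 0 stands against 47.4% of all measured genes. The median member stood at 0.13, or -0.89 when the arrays were scaled on all hybridisation controls and -0.24 on the cre controls alone. It lay 0.15 above the median of all genes, a gap that a common scaling cannot change and that ran from 0.09 to 0.17 over the other alternatives. At least 2-fold higher were 2 members, Slc22a5 and Slc25a20, or 6.06% beside 1.80% of all measured genes. At least 2-fold lower was 1 member, Etfdh, or 3.03% beside 2.79%. Among the brighter genes that reached the 75th percentile of intensity, 2 of 31 members were higher and 1 lower, beside 2.78% and 4.25% of such genes. At 1.5-fold the counts were 6 higher and 2 lower, or 18.2% and 6.06%, beside 6.76% and 9.49% of measured genes. The 4 further genes past 1.5-fold upward were Hadh, Decr1, Acsl3 and Crat, and the further one downward was Acsm5. With all probe sets of a gene averaged, these 4 stood at 0.22, 0.34, 0.32 and 0.51, each under 1.5-fold. For Acsl3 that average took in probe sets below the measured range, and over measured probe sets alone Acsl3 stayed at 0.78. For Hadh, Decr1 and Crat the count thus depends on how probe sets are combined. Downward, with all probe sets averaged, Acsm5 stayed at -0.60, Etfdh stood at -0.57 and Bdh1 at -0.84. In all, 22 members lay within 0.5 of 0. The quartiles of the members were -0.11 and 0.51, a range no narrower than that of all measured genes, -0.29 and 0.23.

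**Figure D1:**
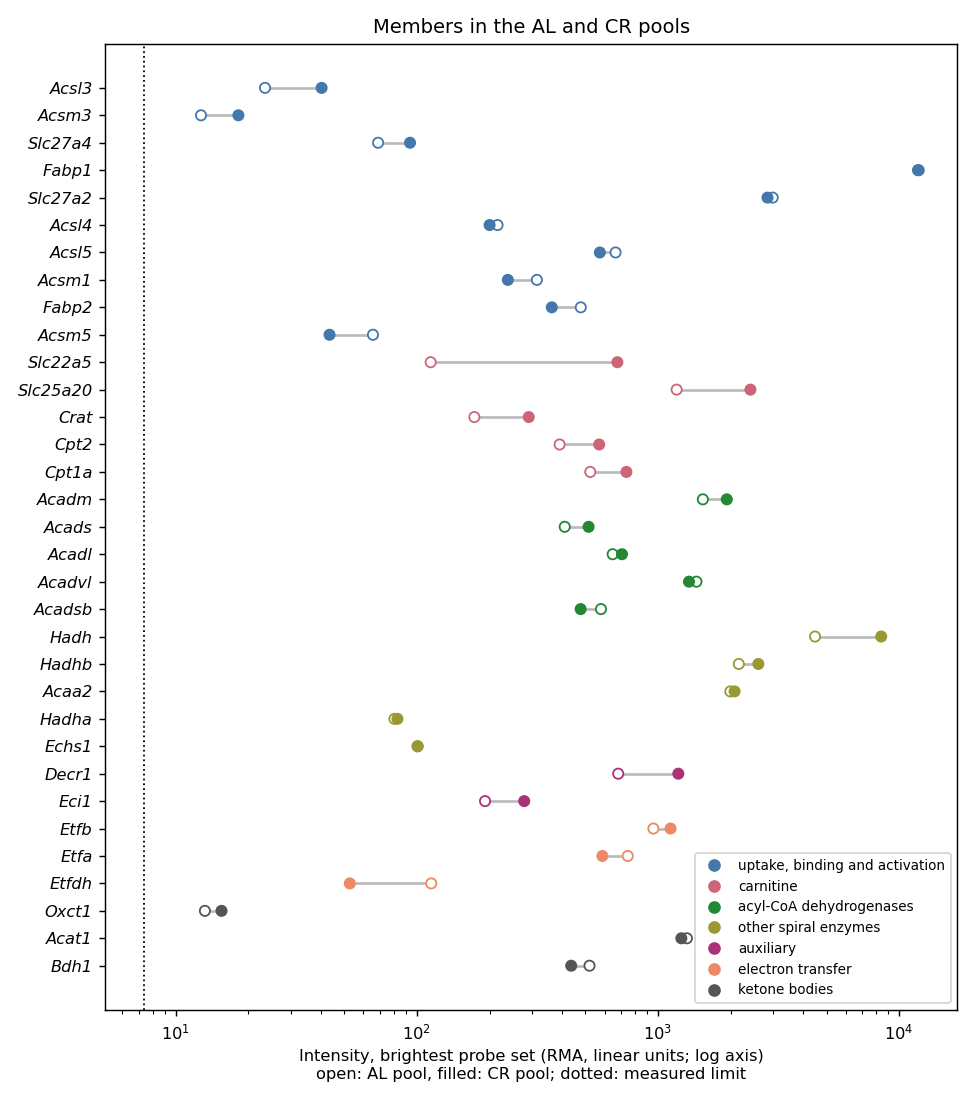
Intensity of each member's brightest probe set in the AL pool (open) and the CR pool (filled) on a log axis, coloured by role, with the measured limit of 7.38 dotted. The long bar is Slc22a5, from 114 to 678, while Fabp1 and Echs1 overlap themselves; levels of different genes cannot be compared on this axis, since each probe set has its own response.

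By role, the median difference was 0.75 for the 5 carnitine genes and 0.68 for the 2 auxiliary enzymes. It was 0.13 for the 5 acyl-CoA dehydrogenases, 0.06 for the 5 other enzymes of the spiral, -0.08 for the 3 ketone body genes, -0.09 for the 10 genes of uptake, binding and activation and -0.35 for the 3 electron transfer genes. Scaling on all hybridisation controls put every role below 0, the carnitine genes at -0.27 and the auxiliary enzymes at -0.33. The order of the roles is a description of these pools, with no test behind it.

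**Figure D2:**
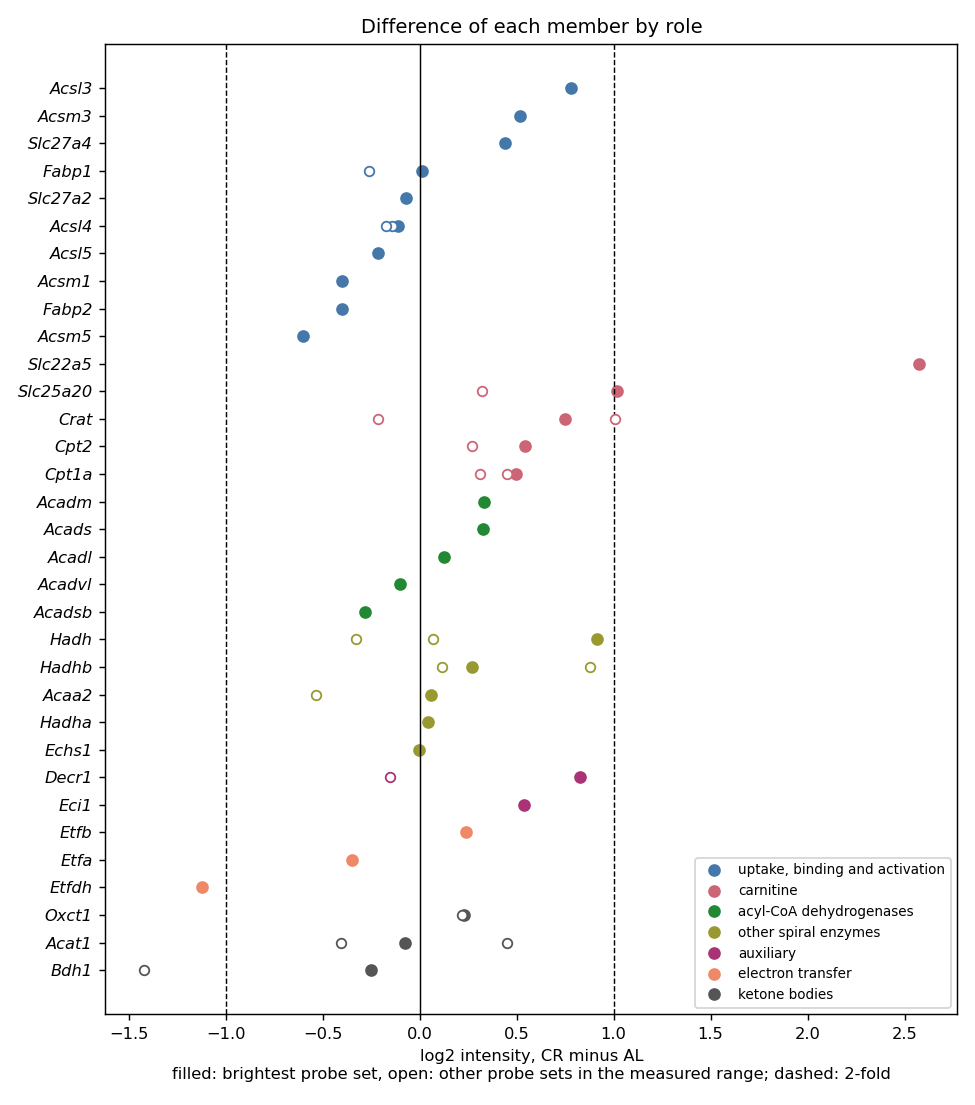
log2 intensity of CR minus AL for each member, grouped by role; filled points are the brightest probe set, open points the other probe sets in the measured range, and dashed lines mark 2-fold. All 5 carnitine genes lie above 0 on their brightest probe set (on these normalized values, not after scaling on all hybridisation controls), and the open points show that 6 members had probe sets on both sides of 0.

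Slc22a5, which encodes OCTN2, the plasma membrane carrier that brings carnitine into the cell, read 114 in the AL pool and 678 in the CR pool. Its difference of 2.57, or 5.95-fold, was the highest of any member and the 16th highest of 12644 measured genes. Its other probe set was below the measured range in both pools, at 4.56 and 5.23, so the gene rested on 1 probe set. Slc22a5 was higher in CR under every alternative tried, from 1.39 with both probe sets averaged to 2.60.

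Slc25a20, the inner membrane exchanger of acylcarnitine for free carnitine, read 1195 in the AL pool and 2417 in the CR pool, a difference of 1.02. It lay just past 2-fold, and its dimmer probe set, at 122 and 153, gave 0.32, so that their mean was 0.67. Cpt1a makes long-chain acylcarnitine at the outer membrane and is the step that malonyl-CoA inhibits. It had 523 in AL and 739 in CR, a difference of 0.50, and its other probe sets gave 0.31 and 0.45. All 3 Cpt1a probe sets were thus higher in CR by well under 2-fold on these normalized values, but not after scaling on all hybridisation controls.

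Cpt2, which turns acylcarnitine back into acyl-CoA inside the matrix, had 391 in AL and 570 in CR, a difference of 0.55, and its dim probe set, under the limit in AL, was at least 1.02-fold higher. Crat, the acetyltransferase that loads short acyl groups onto carnitine, had 173 and 291, a difference of 0.75. Its other probe sets disagreed, at 1.01 and -0.22, the last at intensities of 14.5 and 12.5. After scaling on all hybridisation controls Cpt1a, Cpt2 and Crat were at -0.52, -0.47 and -0.27, Slc25a20 stood at 0.00 and Slc22a5 at 1.56.

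The sequences just before the start sites of 4 of these carnitine genes are shown because the 4 stood on the same side of 0. They are the 250 bases before the annotated start, from RefSeq on GRCm38.p6, written 5′ to 3′ on the gene's strand, and capitals mark the GC box GGGCGG or its complement. Slc22a5 lies at chr11:53891704-53891953 on the minus strand, Slc25a20 at chr9:108661886-108662135 on the plus strand, Cpt1a at chr19:3323051-3323300 on the plus strand and Cpt2 at chr4:107923590-107923839 on the minus strand.
Slc22a5: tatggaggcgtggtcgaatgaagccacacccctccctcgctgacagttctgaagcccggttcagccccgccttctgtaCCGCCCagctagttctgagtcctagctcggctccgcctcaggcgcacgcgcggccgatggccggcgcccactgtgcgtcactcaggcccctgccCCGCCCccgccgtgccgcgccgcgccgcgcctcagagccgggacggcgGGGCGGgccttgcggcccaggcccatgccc
Slc25a20: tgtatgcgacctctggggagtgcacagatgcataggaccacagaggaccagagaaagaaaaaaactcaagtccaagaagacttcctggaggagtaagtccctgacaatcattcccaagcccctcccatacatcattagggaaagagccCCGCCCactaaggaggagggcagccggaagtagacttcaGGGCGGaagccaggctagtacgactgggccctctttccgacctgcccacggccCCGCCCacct
Cpt1a: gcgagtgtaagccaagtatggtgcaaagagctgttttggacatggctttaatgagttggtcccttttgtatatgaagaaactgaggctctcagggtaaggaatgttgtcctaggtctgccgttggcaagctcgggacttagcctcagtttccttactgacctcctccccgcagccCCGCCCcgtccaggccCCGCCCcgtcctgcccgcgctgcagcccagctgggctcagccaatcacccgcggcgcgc
Cpt2: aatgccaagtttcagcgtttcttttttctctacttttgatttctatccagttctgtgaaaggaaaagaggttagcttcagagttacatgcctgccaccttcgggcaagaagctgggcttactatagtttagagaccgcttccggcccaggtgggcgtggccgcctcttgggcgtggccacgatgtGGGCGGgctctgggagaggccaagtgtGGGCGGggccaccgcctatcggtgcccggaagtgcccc

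All 4 are rich in GC boxes and in G and C, from 56.8% in Slc25a20 and Cpt2 to 73.6% in Slc22a5. GC boxes were counted 3 times each in Slc22a5 and Slc25a20 and 2 times each in Cpt1a and Cpt2. Over windows of 300 bases, from 250 before to 50 after the start, 20 of the 30 members with a window held a GC box on either strand, or 66.7%, beside 35.7% of all 32851 windows in the table. In this and the other motif counts, a member counted if any of its windows matched, with 32 windows for the 30 members. The share of all windows is instead per window, and those windows were not limited to genes measured in these livers. The members without a window were Acaa2, Decr1, Acat1 and Crat. The motif searches were chosen with the values known.

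PPAR alpha binds, together with RXR, a direct repeat of a hexamer spaced by 1 base. The pattern AGGNCANAGGNCA, searched on both strands, was found in 0.381% of all windows and in 1 member, Fabp1. None of the 4 carnitine windows held it, which says only that these letters are not in these windows. The single hexamer AGGTCA, which overlaps the first motif in Fabp1, was found in 7 of 30 members, or 23.3%, beside 16.3% of all windows, and among the 4 in Cpt1a alone, at positions -94 to -89. The letters TCAAGGTCA, the extended site of estrogen-related receptors, were found in no member window and in 0.423% of all.

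Fabp1, the abundant fatty acid binding protein of hepatocyte cytosol, read 11974.5 in the AL pool and 12063 in the CR pool, a difference of 0.01. Its second probe set, at 11322 and 9454, gave -0.26. Fabp1 is a textbook PPAR alpha target, and its upstream sequence is shown because it was the member window with the paired hexamer while its intensity hardly differed. The stretch is chr6:71199629-71199878 on the plus strand of GRCm38.p6, and capitals mark the paired hexamer, read here on the opposite strand at positions -67 to -55, and the TATA box at -30 to -25.
Fabp1: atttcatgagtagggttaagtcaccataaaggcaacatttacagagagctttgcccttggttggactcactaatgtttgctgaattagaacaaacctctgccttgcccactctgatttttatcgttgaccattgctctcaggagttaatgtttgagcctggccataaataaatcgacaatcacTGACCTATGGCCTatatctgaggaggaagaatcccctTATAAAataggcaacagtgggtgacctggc

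The letters TATAAA were found in no other member window, that is, in 3.33% of members beside 13.6% of all windows. A match in these letters says nothing of binding in these livers.

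Uptake and activation genes lay on both sides of 0, with 4 of 10 above, beside 47.4% of all measured genes. None was past 2-fold, beside 1.80% of all measured genes higher and 2.79% lower. Slc27a2, the FATP2 transporter and very-long-chain acyl-CoA synthetase, had 2990.0 in AL and 2845 in CR, a difference of -0.07. Slc27a4, the related FATP4, had 69.0 and 93.6, a difference of 0.44. Fabp2, the intestinal-type binding protein that liver also expresses, had 478 and 362, a difference of -0.40.

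The long-chain acyl-CoA synthetases, which trap fatty acids as acyl-CoA, did not share a direction. Acsl3, associated with lipid droplets, had 23.4 in AL and 40.2 in CR, a difference of 0.78 on its only probe set in the measured range. Acsl4, which prefers arachidonic acid, had 216 and 200.1, and its 3 probe sets ran narrowly from -0.17 to -0.11. Acsl5 had 667 and 574, a difference of -0.22.

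The medium-chain synthetases Acsm1, Acsm3 and Acsm5 lie near each other on chromosome 7, with 1 protein-coding gene between Acsm5 and Acsm1 and 3 between Acsm1 and Acsm3. Acsm1 read 314 in AL and 238 in CR, a difference of -0.40, and Acsm5 had 65.7 and 43.4, a difference of -0.60. Acsm3 was dim, with 12.7 in AL and 18.2 in CR, and gave 0.51. The neighbours therefore did not share a direction, and each rested on 1 probe set.

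The acyl-CoA dehydrogenases, which open each turn of the spiral and differ in the chain length they accept, all lay within 0.4 of 0. Acadm, for medium chains, had 1534 in AL and 1929 in CR, a difference of 0.33. Acads, for short chains, had 410.1 and 515, also 0.33. Acadl, for long chains, had 648 and 709, a difference of 0.13.

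Acadvl, the membrane-bound enzyme for very long chains, was on the other side of 0, with 1443 in AL and 1344 in CR and a difference of -0.10. Acadsb, which acts on short branched chains and belongs to isoleucine breakdown, had 579.8 and 478, a difference of -0.28. Of the 5 dehydrogenases, 3 were above 0 and 2 below, and each had 1 probe set in the measured range. After scaling on all hybridisation controls their median was -0.89.

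The enzymes that complete the turn were led by Hadh, but only on 1 of its 3 probe sets. Hadh, the 3-hydroxyacyl-CoA dehydrogenase for short chains, had 4480 in AL and 8431 in CR on its brightest probe set, a difference of 0.91. Its other probe sets, at 636 and 668 and at 218 and 173.5, gave 0.07 and -0.33. The brightest probe set is of a type that can match several transcripts, and without such probe sets Hadh stood at 0.07.

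Hadha and Hadhb encode the alpha and beta subunits of the mitochondrial trifunctional protein, which carries out the remaining steps for long chains. Hadha had 80.6 in AL and 83.0 in CR, a difference of 0.04. Hadhb had 2164 and 2607, a difference of 0.27, with other probe sets at 0.12 and 0.88, the last at intensities of only 9.03 and 16.6. The genes are neighbours on chromosome 5 with no protein-coding gene between them and start in opposite directions, 272 bases apart. The stretch that their windows share lies before both starts, at chr5:30155003-30155230 of GRCm38.p6, and is shown on the plus strand, the strand of Hadhb, with its GC box in capitals, because these subunits of one complex are read outward from it.
Hadha and Hadhb: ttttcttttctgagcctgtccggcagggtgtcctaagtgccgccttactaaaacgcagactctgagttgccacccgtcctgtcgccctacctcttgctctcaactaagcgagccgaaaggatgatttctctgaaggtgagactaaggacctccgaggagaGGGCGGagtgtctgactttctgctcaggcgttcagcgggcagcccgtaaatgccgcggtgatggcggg

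The difference between the subunits' values, 0.04 against 0.27, was smaller than 0.288, the median SD among probe sets of one gene over the table. Acaa2, the 3-ketoacyl-CoA thiolase that ends the turn for shorter chains, had 1995.5 in AL and 2078 in CR, a difference of 0.06. Its other measured probe set, at 514 and 354, gave -0.54. Echs1, the short-chain enoyl-CoA hydratase, had 101 in both pools.

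Auxiliary enzymes, which bring unsaturated chains into the spiral, were both higher in CR by less than 2-fold, and both lower, at a median of -0.33, after scaling on all hybridisation controls. Decr1, the 2,4-dienoyl-CoA reductase, had 684 in AL and 1214 in CR, a difference of 0.83. Its dimmer probe set, at 111 and 99.8, gave -0.15. Eci1, the isomerase for double bonds at odd positions, had 192 and 279, a difference of 0.54 on 1 probe set.

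The electron transfer chain of the dehydrogenases held the lowest member. Etfdh, the membrane enzyme that hands their electrons to ubiquinone, had 115 in AL and 52.65 in CR, 2.18-fold lower, a difference of -1.12. Its second probe set was below the measured range, at 3.45 and 3.41, so it also rested on 1 probe set, and the mean of both was -0.57. Etfa and Etfb encode the subunits of the flavoprotein that feeds Etfdh. Etfa had 749 in AL and 588 in CR, a difference of -0.35, whereas Etfb had 957 and 1127, a difference of 0.24. The 2 subunits of one dimer thus lay on opposite sides of 0, both within 0.4 of it.

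**Figure D3:**
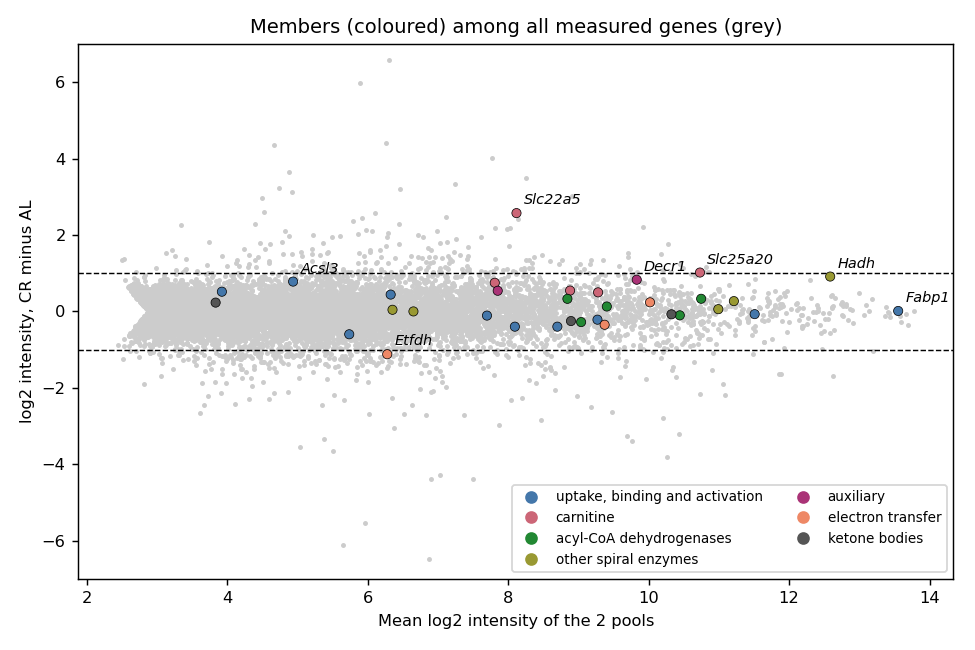
Each of 12644 measured genes (grey) by its mean log2 intensity in the 2 pools and its difference, with the members coloured by role and 2-fold dashed. Slc22a5 stands clear of the members at 2.57, Slc25a20 and Etfdh lie at the 2-fold lines, and Hadh and Fabp1 sit among the brightest genes.

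Set against genes of like brightness, within 0.5 of the member's mean log2 intensity, 2 of 33 members lay outside the central 95%. That is near the share of all genes that such bounds leave outside by construction. Slc22a5 exceeded the upper bound of 1.12 over 726 such genes. Hadh exceeded 0.73, a bound that rested on only 52 genes, and its other probe sets gave 0.07 and -0.33. Slc25a20 was inside, under the bound of 1.04 over 209 genes, as was Etfdh, over the bound of -1.18 from 1594 genes. The bounds describe these 2 arrays and are not a test.

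Ketone body genes showed little difference. Acat1, the mitochondrial thiolase that joins acetyl-CoA units into acetoacetyl-CoA, had 1318 in AL and 1249 in CR, a difference of -0.08. Its other probe sets gave -0.41, at 1217 and 919, and 0.45, at 59.8 and 81.6. Bdh1, which converts acetoacetate to 3-hydroxybutyrate, had 519.7 and 436, a difference of -0.25. Its dim probe set read 16.3 in AL and missed the limit in CR, which makes it at least 2.2-fold lower there.

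Oxct1, the transferase with which other tissues use ketone bodies and which hepatocytes largely lack, was dim in both pools, at 13.2 in AL and 15.5 in CR, a difference of 0.23, with 0.22 on its other probe set. No member of the ketone body group differed 2-fold on its brightest probe set.

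Other genes of the pathway and its control were taken from a list of 87 symbols, of which 74 were measured. On it 41 genes were above 0 and 33 below, 7 at least 2-fold higher and 3 at least 2-fold lower, with a median of 0.08. That is 41 of 74 above 0 beside 47.4% of all measured genes, and 7 and 3 of 74 past 2-fold beside 1.80% and 2.79%. Of 20 further oxidation enzymes, 13 were below 0, and Echdc2, an enoyl-CoA hydratase domain protein, was at least 2-fold lower, at -1.34, reading 44.4 in AL and 17.5 in CR. Of 6 further carnitine genes, 5 were below 0 and none reached 2-fold.

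Of 13 measured regulators, 8 were above 0 and 5 below, with a median of 0.31. Of all measured genes 47.4% were above 0, with a median of -0.02. Ppara, the gene of PPAR alpha, had 190.5 in AL and 390.3 in CR, a difference of 1.04, and its 3 probe sets reached 1.48. Its partner Rxra stood at -0.43. The coactivators Ppargc1a and Ppargc1b stood at 0.42 and 0.89, the estrogen-related receptor gene Esrra at 0.50 and the fasting-responsive factor Creb3l3 at 0.11. Ppargc1a had 5 measured probe sets, from 0.32 to 1.45.

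Genes of transport and fuel choice beside the spiral held the widest differences on the list. Cd36, a fatty acid transporter, had 38.2 in AL and 77.7 in CR, a difference of 1.02, and all 3 probe sets lay between 1.02 and 1.20. Fabp5, another fatty acid binding protein, had 1378 and 242, a difference of -2.51, with -2.80 on its second probe set. Acacb, which makes the malonyl-CoA that inhibits Cpt1a, had 61.9 in AL and 129 in CR, a difference of 1.06, with 0.56 on its second probe set. Of the 3 genes of malonyl-CoA control on the list, 2 were above 0 and 1 below.

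The monocarboxylate transporters Slc16a7 and Slc16a6, of a family that carries ketone bodies, lay in opposite directions. Slc16a7 had 99.5 in AL and 383 in CR, a difference of 1.94, on 1 measured probe set. Slc16a6 read 13.7 in AL and missed the limit in CR, and was therefore at least 1.86-fold lower. Acot2, a matrix thioesterase that frees fatty acid from acyl-CoA, had 91.5 and 1023, a difference of 3.48, but 0.94 on its second probe set.

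The pyruvate dehydrogenase kinases hold back the entry of carbohydrate carbon into the citric acid cycle. Pdk4 read 8.10 in AL and 774 in CR, a difference of 6.58 on 1 measured probe set. Pdk1 had 198 and 429, a difference of 1.12, while its 3 probe sets reached down to 0.08.

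**Figure D4:**
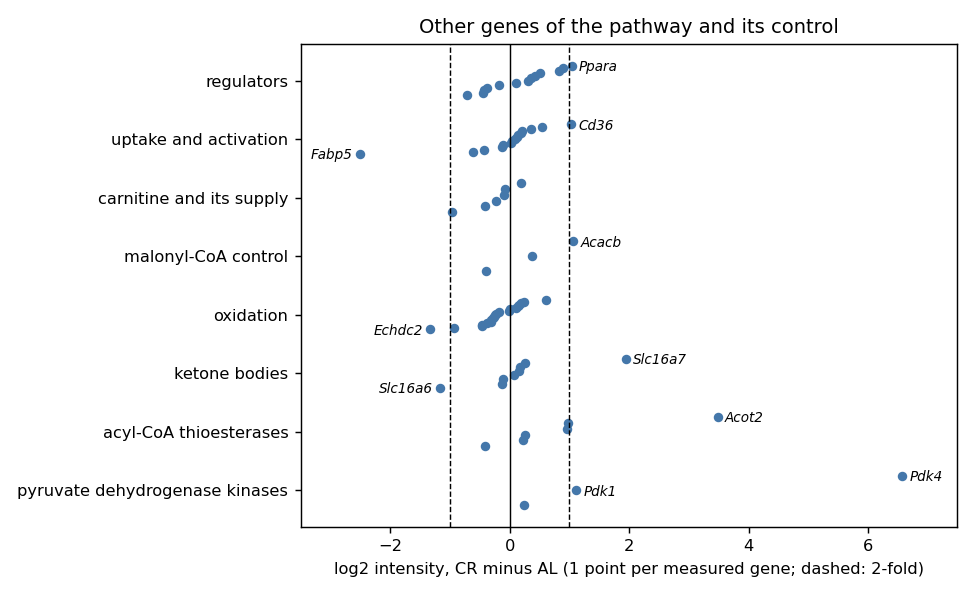
log2 intensity of CR minus AL for the 74 measured genes of the pathway list outside the members, 1 point per gene, by role, with 2-fold dashed and the genes past it named. Pdk4 at 6.58 and Acot2 at 3.48 lie far from 0, while no further carnitine gene reaches a dashed line.

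Probe sets of one member often disagreed. Of the 60 probe sets of members, 52 were in the measured range, 30 of them above 0 and 22 below. Of 13 members with several measured probe sets, 7 had them all on one side of 0 and 6 on both sides, namely Hadh, Acaa2, Decr1, Acat1, Fabp1 and Crat. Over the whole table, 52.7% of 4924 genes with several measured probe sets had them on both sides. The remaining 20 members had 1 measured probe set, Slc22a5 and Etfdh among them.

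**Figure D5:**
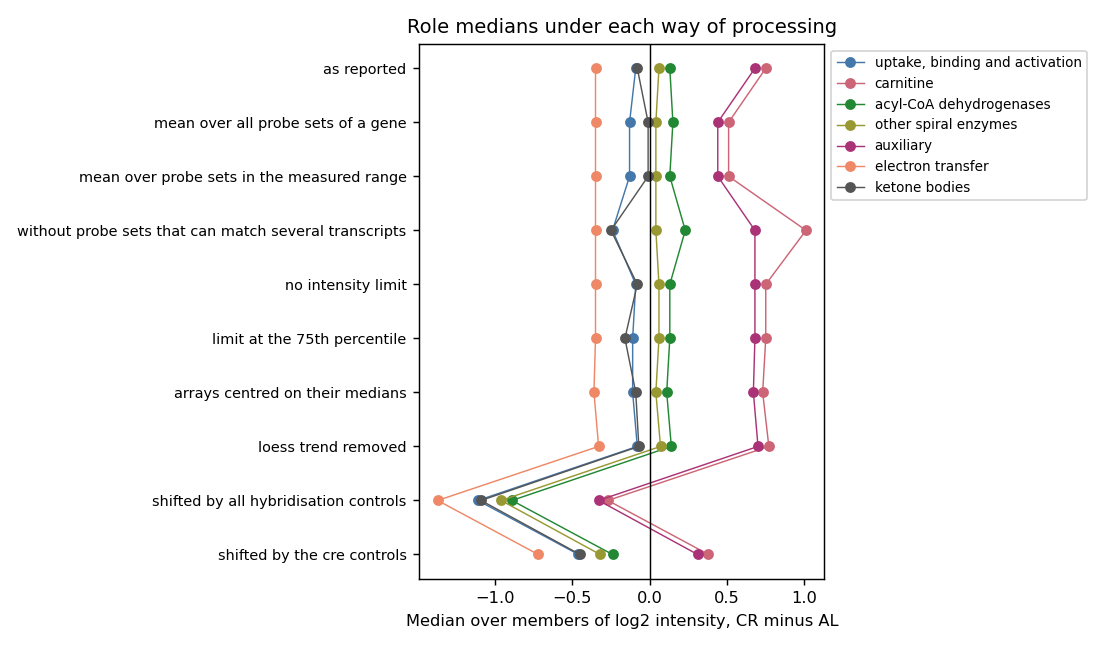
Median difference over the members of each role (x axis, log2 CR minus AL) as reported and under each other way of processing (rows). Carnitine and auxiliary genes stay to the right of the other roles in each row, while scaling on all hybridisation controls moves both below 0, to -0.27 and -0.33.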

How the data were processed

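Per the labels' protocols, each diet's pool joined total RNA from 3 livers, and 6 ug went into biotinylated cRNA. The authors deposited 1 column of linear intensity per pool, and the submitters' processing notes name RMA. That method corrects background, normalizes between arrays and summarises probes, which hides any shift common to most genes. Its software and options are not given in the sources used here.

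Intensities were taken to log2 and subtracted, CR minus AL. All 60 probe sets of members agreed in Entrez ID and symbol with RefSeq's GRCm38.p6 genes, and no probe set with several symbols named a member. Control probe sets were left out. Motifs were searched on both strands of RefSeq start-site windows. Every member is named. From the pathway list are named 6 regulators and the genes past 2-fold, and some listed items are not reported here. Members and lists were chosen with earlier results of these data known. Depth does not apply to arrays, and 1 array per group limits precision. The alternatives averaged or left out probe sets, changed the intensity limit (none, or 21.0 at the 75th percentile), or centred, loess-corrected (span 0.4) or spike-scaled the arrays. Only the step from probe sets to gene differences was tested on simulated data, with differences beyond 2-fold planted in bright genes. Each planted difference was the same for all probe sets of a gene. Dim genes, values at the 2-fold line, role medians and motif searches were not covered. Software was matplotlib 3.10.9, statsmodels 0.14.6, pandas 2.3.3 and numpy 2.4.6 under Python 3.11.15.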

Additional observations from a re-analysis of the deposited data

How the results depend on the processing

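No paired analysis was possible because each diet had 1 array, and no replicate could be left out. A median was taken to have moved if it changed by more than 0.288, the median SD among probe sets of one gene, divided by the square root of its number of members. A count was taken to have moved if it changed by more than 1.5 times. Removing the intensity limit, centring and loess moved no median or count by these rules, with 19 members above 0 after centring and 21 after loess. With all probe sets of a gene averaged, the carnitine median was 0.51 and the auxiliary one 0.44, and 1 member was at least 2-fold higher and 0 lower. Averaging only probe sets in the measured range, chosen after seeing the data, also gave 0.51, 0.44 and 1 higher. With probe sets left out whose type may match more than 1 transcript, the median was 0.06 over 30 members, -0.24 for uptake and activation, 1.01 for carnitine and -0.25 for ketone bodies. At least 2-fold higher were then 3 members, Crat at 1.01 among them, and 1 was at least 2-fold lower. The limit at the 75th percentile left 31 members with a median of 0.06. At 1.5-fold in place of 2-fold, 6 members were higher and 2 lower. Leaving out members with probe sets on both sides of 0, chosen after seeing the data, kept the median at 0.13 over 27 members.

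Scaling moved the whole table. With all hybridisation controls the median of all genes was -1.04 and that of members -0.89, with 2 members above 0, 1 at least 2-fold higher and 14 lower. The role medians were then -1.11 for uptake and activation, -0.27 for carnitine, -0.89 for dehydrogenases, -0.96 for the other spiral enzymes, -0.33 for auxiliary enzymes, -1.37 for electron transfer and -1.09 for ketone bodies. All genes then numbered 33 higher and 6857 lower, against 227 and 353. With cre alone the median of all genes was -0.40 and that of members -0.24, with 11 members above 0 and 1 at least 2-fold higher, and the role medians in the same order were -0.46, 0.38, -0.24, -0.32, 0.31, -0.72 and -0.45. The cause of these moves was not tested. Of the members past 2-fold, Slc22a5 and Etfdh kept their sign under every alternative. Slc25a20 stood at 0.00 after scaling on all hybridisation controls, and with probe sets averaged it stood at 0.67 and Etfdh at -0.57.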
